A study of Mus musculus with 38 samples.

Results

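Precision-cut kidney slices (PCKS) are thin sections of living kidney that are kept in culture, so that a hormone can act on kidney tissue without reaching any other organ. The slices described here came from mice with adenine nephropathy and were cultured with recombinant FGF23 or with vehicle. They were chosen by their sample labels alone and make up 8 of the 38 RNA-Seq libraries of the study, 4 with FGF23 and 4 with vehicle. The other 30 libraries are of kidney tissue from mice that received FGF23 or vehicle by injection, per the methods a piece of the pars intermedia of each mouse.

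FGF23 is a bone-derived hormone that lowers phosphate and calcitriol, the active form of vitamin D. In the kidney it binds FGF receptors together with the co-receptor Klotho, which is encoded by Kl, and the signal runs through adaptors such as FRS2 and GRB2 to the MAP kinases ERK. In the proximal tubule the classical outcome is removal of the phosphate transporters NaPi-IIa (Slc34a1) and NaPi-IIc (Slc34a3) from the brush border, less Cyp27b1, which makes calcitriol, and more Cyp24a1, which degrades it. Cells with little Klotho can also respond to FGF23, for which FGFR4 has been described as a receptor in liver and heart. The comparison asked whether FGF23 changes inflammatory genes in diseased kidney tissue directly.

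All 8 libraries were labelled as kidney of male DBA/2J mice with adenine nephropathy, a tubulointerstitial disease with crystal deposits and fibrosis that follows from adenine in the diet. Per the methods, the diet held 0.2% adenine for 15 weeks, and the slices were 300 µm thick, held both cortex and medulla, and spent 20 h in Williams' E medium at 95% oxygen before treatment. The vehicle was PBS with 0.1% bovine serum albumin, and the FGF23 was recombinant human protein at 200 ng/mL. The labels give a treatment of 1 h, whereas the text of the study gives 24 h. No slices of healthy mice were made, so every FGF23 effect described here was measured in diseased tissue that had also been sliced and cultured. The slice mice were 8 weeks old at the start of the diet and 23 weeks old at euthanasia. The kidneys set beside the slices came from male C57BL/6 mice, healthy or with anti-GBM glomerulonephritis, and from female BALB/c mice, healthy or with Adriamycin nephropathy, 3 or 4 per group. Per the methods, both of these diseases were induced at 8 weeks of age. By the labels, FGF23 or vehicle treatment lasted 6 days in the anti-GBM experiment and 24 h in the Adriamycin experiment. The methods give daily injections for the former and a single injection for the latter.

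The deposited values are raw read counts per gene, with 11186925 to 16254987 counts per slice library. Levels are given as CPM, a gene's share of all counts of its library brought to a common library size, after scaling with edgeR's TMM factors, and differences as log2 fold changes of FGF23 minus vehicle with a standard error or a 95% interval. Of 55487 genes, 15090 passed the filter on low counts, and each was tested by edgeR (quasi-likelihood), with p-values adjusted over all of them by Benjamini-Hochberg and a threshold of 0.05.

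The label was checked first. Transcripts of kidney cells were present in every slice library, with the podocyte gene Podxl at 397 to 643 CPM and Umod of the loop of Henle at 1377 to 4993 CPM. The sex genes did not match the label. Xist, which is transcribed from the inactive X chromosome of females, had 13261 to 22993 counts in the slices, against 0 to 4 in the 14 male mice of the anti-GBM experiment and 10768 to 20942 in the 16 female mice of the Adriamycin experiment. The Y-linked genes Ddx3y, Kdm5d and Uty had 0 counts in all 8 slice libraries. The libraries labelled male therefore carried a female pattern of these genes, the same in both treatments.

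Libraries of the same treatment were not alike. The first principal component held 41.5% of the variance and set FGF23 replicate 1 at 50.6, with the other 7 libraries at -23.3 to 14.9. That library also had the highest share of mitochondrial counts, 3.98%, against 1.72% to 2.22% in the others. Its collecting duct transcripts stood out: Aqp2, the vasopressin-regulated water channel, was at 247 CPM there, at 25.8, 44.1 and 22.6 CPM in FGF23 replicates 2 to 4, and at 30.9, 5.80, 34.7 and 9.22 CPM in vehicle replicates 1 to 4. The second component held 22.6% and set vehicle replicates 2 and 4, at 30.5 and 12.4, apart from vehicle replicates 1 and 3, at -15.3 and -19.5.

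The immunoglobulin V genes, which B cells and plasma cells join in a combination of their own before they multiply, gave a further view of which libraries resembled each other. Across 41 V genes, each library's V gene shares correlated with those of 1 other library of the same treatment: Pearson's r was 0.749 for vehicle replicates 1 and 3, 0.988 for vehicle replicates 2 and 4, 0.836 for FGF23 replicates 1 and 3 and 0.501 for FGF23 replicates 2 and 4. Libraries of the same number but different treatment had r from -0.29 to 0.0251. These correlations are a description over few counts, 116 to 912 V gene counts per library. Igkv8-24 made up 32.1% and 33.2% of the V gene counts in vehicle replicates 2 and 4, and Igkv3-2 was the leading V gene in vehicle replicates 1 and 3, with 17.1% and 7.05%. In the FGF23 slices the leading gene was Iglv1 in replicates 1 and 3, with 11.5% and 16.4%. The sources used here do not say how the slices of each mouse were divided, and where no mouse gave slices to both treatments, a difference between mice and one between treatments cannot be told apart. The p-values below measure the spread between these 8 cultures, and n counts cultures, which these data do not show to be separate mice.

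**Figure D1:**
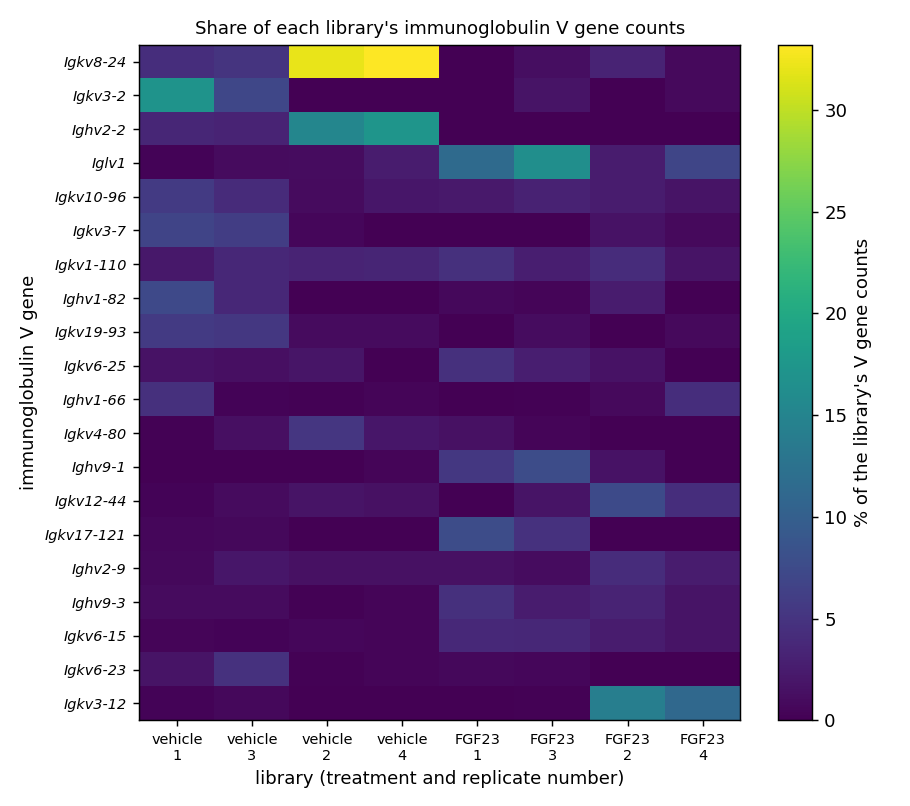
Share of each slice library's immunoglobulin V gene counts (colour, %) taken by each of 20 V genes (vertical axis), with the libraries on the horizontal axis ordered by treatment and then by odd and even replicate number. Igkv8-24 is bright in vehicle replicates 2 and 4 alone, at 32.1% and 33.2%, and neighbouring columns resemble each other more than the columns of the other treatment.

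FGF23 changed no gene past the threshold. By edgeR, 0 of 15090 genes had an adjusted p below 0.05 (0%), and the smallest adjusted p was 0.849. At an unadjusted p below 0.05 stood 738 genes (4.89%), 417 of them higher with FGF23 (2.76%) and 321 lower (2.13%). Fold changes of any size were positive in 7301 genes and negative in 7789. The unadjusted count moved with single libraries: it was 313 without vehicle replicate 2, 419 without vehicle replicate 4, 414 without FGF23 replicate 3, 1114 without FGF23 replicate 2 and 1155 without FGF23 replicate 4, and the count at an adjusted p below 0.05 was 0 in each case. DESeq2, the tool the study used, called 3 genes on the same libraries, the chemokine Ccl4 and the V genes Ighv2-2 and Igkv8-24, with 696 at an unadjusted p below 0.05.

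Ccl4, which encodes the chemokine MIP-1β that draws monocytes and T cells, had the smallest p of all genes that were higher with FGF23. It was at 14.3, 14, 11.99 and 19.4 CPM in vehicle replicates 1 to 4 and at 27.7, 23.5, 23.9 and 27.2 CPM in FGF23 replicates 1 to 4. Every FGF23 library was above every vehicle library. The log2 fold change was 0.77 ± 0.15 (SE, n = 4 per group, 95% interval 0.45 to 1.09), with an unadjusted p of 0.000262 and an adjusted p of 0.849 by edgeR's quasi-likelihood test. DESeq2 gave a log2 fold change of 0.78 and an adjusted p of 0.0067, and over all alternatives run the adjusted p of Ccl4 ranged from 0.00534 to 1. Leaving out each library in turn gave log2 fold changes from 0.69 to 0.93.

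Ccl3, which encodes the related chemokine MIP-1α and is a neighbour of Ccl4 on chromosome 11 (GRCm38, GENCODE M21, 83647844 to 83649355 on the minus strand, with Ccl4 at 83662584 to 83664683 on the plus strand), had the same order of the groups. It was at 10.3, 8.85, 10.3 and 11.4 CPM in vehicle replicates 1 to 4 and at 14.4, 14.2, 14.5 and 18.4 CPM in FGF23 replicates 1 to 4, without overlap. The log2 fold change was 0.59 ± 0.13 (95% interval 0.29 to 0.89), with an unadjusted p of 0.00114, and the gene passed the threshold in neither edgeR nor DESeq2 (adjusted p 0.849 and 0.227).

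Ccl2, which encodes the monocyte chemoattractant MCP-1 and also lies on chromosome 11 (82035571 to 82037453), had its levels in the opposite order. It was at 49.4, 49.3, 57.1 and 42.1 CPM in vehicle replicates 1 to 4 and at 36.3, 33.9, 29.2 and 34.9 CPM in FGF23 replicates 1 to 4. Every FGF23 library was below every vehicle library. The log2 fold change was -0.56 ± 0.11 (95% interval -0.80 to -0.32), with an unadjusted p of 0.000367 and an adjusted p of 0.849 by edgeR and 0.0519 by DESeq2.

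**Figure D2:**
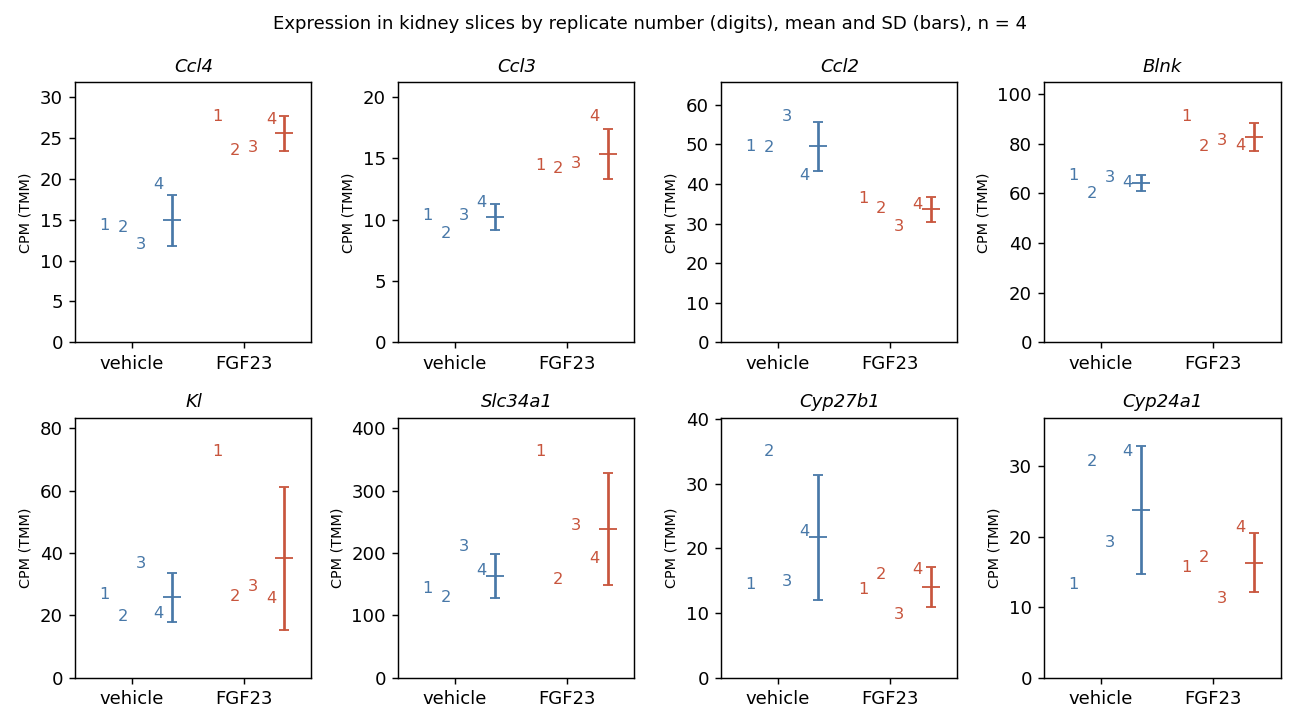
Level of 8 genes in the slices (vertical axis, CPM from 0), with each library shown by its replicate number and the mean and SD of the 4 vehicle (blue) and 4 FGF23 (red) libraries as bars. Ccl4, Ccl3, Ccl2 and Blnk do not overlap between the groups, whereas Kl, Slc34a1, Cyp27b1 and Cyp24a1 do, and FGF23 replicate 1 is the high point of Kl (72.5 CPM) and Slc34a1 (362 CPM).

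Among all genes tested, 220 had every FGF23 library above every vehicle library (1.46%) and 259 had every one below (1.72%). Blnk, an adaptor of the B cell receptor, was in the first group, with 59.8 to 66.9 CPM with vehicle and 78.8 to 91.0 CPM with FGF23 (log2 fold change 0.36, unadjusted p 0.000803). Aqp6, a water channel of intercalated cells, was there too, with 14.7 to 18.04 CPM against 21.03 to 26.9 CPM. So was Dnase1, an extracellular nuclease, with 2.17 to 3.26 CPM against 4.15 to 14.3 CPM, its highest value again in FGF23 replicate 1. The other genes of the 10 with the smallest p in this direction were Rnf225, Efna3, Bhmt, Cpa4 and Nol3, with log2 fold changes of 0.58 to 1.27.

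In the lower direction, Pros1, which encodes the anticoagulant protein S, was at 88.5 to 104 CPM with vehicle and 64.5 to 79.8 CPM with FGF23 (log2 fold change -0.37, unadjusted p 0.00248). Hoxc11, a homeobox gene, was at 1.47 to 2.27 CPM against 0.606 to 0.913 CPM (log2 fold change -1.26). Pknox2, Erap1, H6pd and Ttc30b were also among the 10 with the smallest p in this direction, with log2 fold changes from -0.84 to -0.32. Each of these genes had an adjusted p of 0.849 by edgeR and passed no threshold in DESeq2 without a block.

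The smallest p in the lower direction belonged to V genes. Ighv2-2 had 32, 96, 10 and 35 counts in vehicle replicates 1 to 4 and 0 counts in all 4 FGF23 libraries, which allows up to 3 counts in each. Igkv8-24 had 40, 201, 15 and 67 counts with vehicle and 0, 4, 6 and 1 with FGF23. Both were past the threshold by DESeq2 (adjusted p 8.87e-07 and 0.0253), and over all alternatives their adjusted p ranged from 8.87e-07 and from 0.00036 to 0.992. These are the genes whose shares set vehicle replicates 2 and 4 apart, and the counts of antibody genes as a whole differed as widely within a treatment: Igha, the constant region of IgA, had 314 to 1350 counts with vehicle and 151 to 792 with FGF23. V genes are near copies of each other, so reads can be split between them. With all immunoglobulin and T cell receptor genes left out, edgeR called 0 of 15078 genes and 741 had an unadjusted p below 0.05.

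The receptors that FGF23 could use were all expressed in the slices, with the exception of Klb, the co-receptor of other endocrine FGFs, which had 0 to 2 counts. Kl was at 26.6, 19.5, 36.7 and 20.6 CPM in vehicle replicates 1 to 4 and at 72.5, 25.9, 29.3 and 25.5 CPM in FGF23 replicates 1 to 4. The groups overlapped, and FGF23 replicate 1 lay far above the rest. The log2 fold change of Kl was 0.57 (95% interval -0.18 to 1.32) and was 0.067 without that library. Fgfr1 was at 270.5 to 428 CPM with vehicle and 328 to 421 CPM with FGF23, with a log2 fold change of 0.050 that turned to -0.060 without vehicle replicate 2 and to -0.016 without FGF23 replicate 4. Fgfr4 was at 14.8 to 17.7 CPM and 13.9 to 18.7 CPM, with a log2 fold change of -0.031 that left-out libraries moved between -0.13 and 0.021. Of the 13 receptors, co-receptors and adaptors tested, 8 had a positive and 5 a negative fold change, none reached an unadjusted p below 0.05, and the median was 0.0498, against -0.00655 over all genes.

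Transcripts of the endogenous mouse Fgf23 gene were present in the slices, at 2.76, 0.352, 2.65 and 1.59 CPM in vehicle replicates 1 to 4 and 1.46, 2.32, 1.47 and 2.99 CPM in FGF23 replicates 1 to 4. The groups overlapped, with a log2 fold change of 0.21 (95% interval -0.88 to 1.30) that was -0.16 without vehicle replicate 2 and -0.019 without FGF23 replicate 4. The added hormone was protein and does not enter these counts.

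Genes that ERK signalling is known to induce overlapped between the treatments, each of them. Of 27 FGF-MAPK target genes, 18 had a positive and 9 a negative fold change, with a median of 0.0718. Of the 27, 1 had an unadjusted p below 0.05, against 4.89% of all genes. That gene was Fosl1, a subunit of the AP-1 transcription factor, at 67.3, 56.9, 70.1 and 78.6 CPM with vehicle and 95.8, 78.4, 104 and 65.0 CPM with FGF23 (log2 fold change 0.33, unadjusted p 0.0477). The groups overlapped, since FGF23 replicate 4 was below 3 of the vehicle libraries.

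No feedback inhibitor of FGF receptor signalling in this list reached an unadjusted p below 0.05. Dusp6, an ERK phosphatase, had a log2 fold change of -0.048 (95% interval -0.23 to 0.14), and its vehicle and FGF23 levels were 93.2 to 101 CPM and 83.5 to 101 CPM. Spry4 had 0.15 (95% interval -0.10 to 0.39). Intervals were wider for Spry2 (0.21, 95% interval -0.16 to 0.58), Spred1 (-0.23, -0.58 to 0.12), Spry1 (0.0062, -0.36 to 0.37) and Dusp4 (-0.021, -0.35 to 0.30). The transcription factor genes Etv4 and Etv5 had log2 fold changes of -0.10 and -0.15. Spry1 turned to -0.13 without vehicle replicate 2, and Dusp6 to 0.0037 without FGF23 replicate 1.

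The immediate early genes varied more between libraries than between treatments. Fos was at 198, 48.6, 216 and 85.6 CPM in vehicle replicates 1 to 4 and at 399.5, 119, 181 and 122 CPM in FGF23 replicates 1 to 4. Egr1 was at 395, 122, 417 and 194 CPM and at 720.4, 269.7, 326 and 267 CPM. In both genes vehicle replicates 1 and 3 were above vehicle replicates 2 and 4, and FGF23 replicate 1 was the highest of all. The log2 fold changes of 0.59 for Fos and 0.49 for Egr1 were 0.045 and 0.032 without FGF23 replicate 1. In both genes, FGF23 replicates 2 and 4 were above vehicle replicates 2 and 4, and FGF23 replicate 3 was below vehicle replicates 1 and 3. With the replicate number as a block, edgeR gave an unadjusted p of 0.0187 for Fos and 0.0369 for Egr1 (adjusted p 0.796 and 0.809).

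Of the 23 genes of vitamin D, phosphate and calcium handling, 3 were higher and 2 were lower at an unadjusted p below 0.05 (2.76% and 2.13% of all genes), and the median was 0.0983. Cyp27b1 was at 14.3, 34.97, 14.9 and 22.6 CPM with vehicle and at 13.7, 15.97, 9.78 and 16.7 CPM with FGF23, a log2 fold change of -0.64 (95% interval -1.25 to -0.017, unadjusted p 0.0449). The groups overlapped, and vehicle replicate 2 held the highest value. Without one library or another the log2 fold change ran from -0.79 to -0.30.

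Cyp24a1, the counterpart of Cyp27b1 and an inducible target of calcitriol, was at 13.2, 30.7, 19.2 and 32.1 CPM with vehicle and at 15.7, 17.1, 11.2 and 21.3 CPM with FGF23. The log2 fold change was -0.55 (95% interval -1.16 to 0.066, unadjusted p 0.0734). It thus had a negative estimate like Cyp27b1, with overlapping groups. Vdr, the calcitriol receptor, was at 54.1 to 67.6 CPM and 51.1 to 75.1 CPM (log2 fold change 0.015, and -0.097 without FGF23 replicate 1).

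The phosphate transporters did not share a direction. Slc34a1 was at 143, 129, 209.5 and 171 CPM with vehicle and at 362, 157, 245 and 190.4 CPM with FGF23 (log2 fold change 0.55, 95% interval 0.020 to 1.08, unadjusted p 0.0433). Slc34a2, the NaPi-IIb gene of epithelia outside the proximal tubule, was at 45.6, 98.0, 36.8 and 56.9 CPM with vehicle and at 45.1, 38.7, 38.2 and 34.9 CPM with FGF23 (log2 fold change -0.60, unadjusted p 0.0369). Slc34a1 had its high value in FGF23 replicate 1 and Slc34a2 in vehicle replicate 2, and both overlapped between treatments. Without vehicle replicate 2 the log2 fold change of Slc34a2 was -0.24. Slc34a3 (0.27), Slc20a1 (0.15) and Slc20a2 (-0.038) had smaller log2 fold changes with an unadjusted p above 0.05, and Slc20a2 turned to 0.040 without vehicle replicate 2.

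Lrp2, which encodes the endocytic receptor megalin, and Pdzk1, a scaffold of brush border transporters, were also higher at an unadjusted p below 0.05, with log2 fold changes of 0.43 and 0.35. Without FGF23 replicate 1 the log2 fold changes were 0.19 for Lrp2, 0.17 for Pdzk1 and 0.28 for Slc34a1. All 6 proximal tubule markers tested had positive fold changes, with a median of 0.375, and their mean log2 CPM was 5.23 to 5.83 with vehicle and 5.39 to 6.41 with FGF23 (difference 0.35, exact permutation test, two-sided p = 0.229, n = 4 per group). The part of the proximal tubule content of each slice in these results was not tested. In such bulk samples, fewer cells of a type and less RNA per cell cannot be told apart.

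Among the calcium transport genes of the distal tubule, the estimates of S100g and Calb1 depended on FGF23 replicate 1. S100g, a calcium-binding protein gene that calcitriol induces, was at 19.1 to 29.7 CPM with vehicle and at 91.6, 20.1, 30.7 and 19.3 CPM with FGF23. Its log2 fold change of 0.69 was -0.094 without that library, and Calb1 went from 0.58 to 0.056. Trpv5, the apical calcium channel, had 0.20 (95% interval -0.23 to 0.63). Trpv6 and the plasma membrane calcium pump genes Atp2b1 and Atp2b4 were lowest in that library, at 12.01, 121.9 and 40.39 CPM. Their log2 fold changes were -0.12, -0.13 and 0.095, and -0.020, -0.037 and 0.18 without it.

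**Figure D3:**
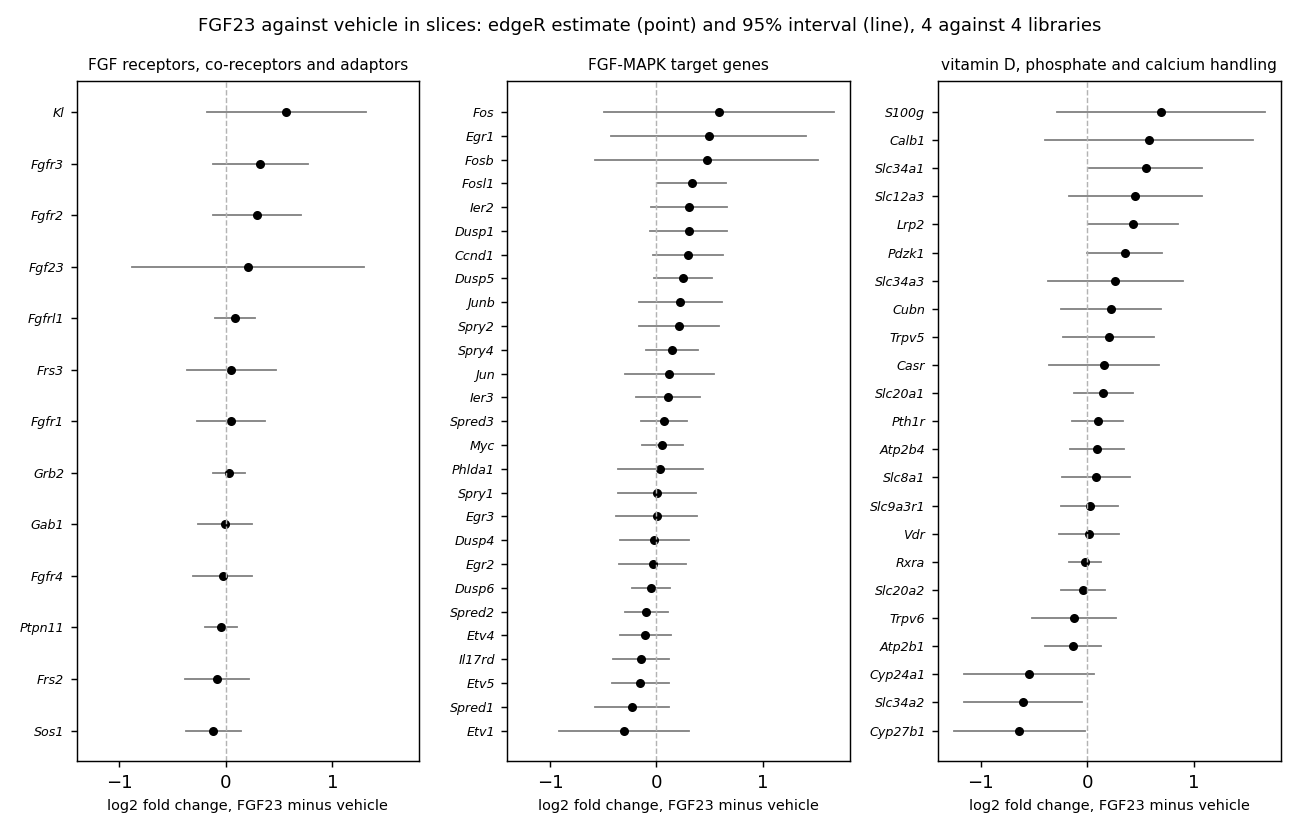
Log2 fold changes of FGF23 minus vehicle in the slices (horizontal axis, edgeR estimate as a point and 95% interval as a line, 4 libraries per group) for the receptors and adaptors, the FGF-MAPK target genes and the mineral metabolism genes (vertical axis). Nearly all intervals cross 0, those that do not end close to it, and Fgf23, Fos, Fosb, Calb1 and S100g have the widest.

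No gene of the inflammatory lists passed the threshold by edgeR. Of 29 chemokine genes tested, 2 were higher and 5 lower at an unadjusted p below 0.05, against 2.76% higher and 2.13% lower of all genes. Of the 29, 10 had positive and 19 negative fold changes, and the median was -0.139. Beside Ccl2, the lower ones were Ccl8 (-0.94), Ccl12 (-0.85), Ccl20 (-0.69) and Cxcl14 (-0.33), each with overlapping groups. Without vehicle replicate 2 the log2 fold changes of Ccl8 and Ccl12 were -0.49 and -0.42. Of 12 chemokine receptors, 4 had positive and 8 negative fold changes, and Cxcr3, the receptor of interferon-induced chemokines on T cells, was the 1 below an unadjusted p of 0.05, at 0.907 to 1.70 CPM with vehicle and 0.364 to 0.952 CPM with FGF23.

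The gene list of Toll-like receptor signaling, which includes Ccl3 and Ccl4 as target genes, had 2 members higher and 6 lower of 56 tested (2.76% and 2.13% of all genes), with 18 positive and 38 negative fold changes and a median of -0.0918. Both higher members were these chemokines. The lower ones were the receptor genes Cd14, Tlr1 and Tlr2, Irak4 and Tirap, which encode a kinase and an adaptor of these receptors, and Spp1, which encodes the secreted protein osteopontin. Cd14, the co-receptor for lipopolysaccharide, was at 250.3, 443, 235 and 298 CPM with vehicle and at 167, 229, 201 and 220 CPM with FGF23 (log2 fold change -0.59, unadjusted p 0.01). Every FGF23 library was below every vehicle library for Cd14, Tlr1 (-0.50) and Irak4 (-0.30), while Tlr2 (-0.36), Tirap (-0.32) and Spp1 (-0.47) overlapped. Without vehicle replicate 2, which held the highest Cd14 level, the log2 fold changes were -0.35 for Cd14, -0.21 for Tlr2, -0.20 for Tirap and -0.25 for Spp1.

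In the interleukin-12 list 3 of 42 genes were higher and 2 lower (2.76% and 2.13% of all genes), with a median of -0.0791. The higher ones were again Ccl3 and Ccl4, together with Map2k3, a kinase upstream of p38, which was at 135 to 173 CPM with vehicle and 182 to 220 CPM with FGF23 (log2 fold change 0.31, unadjusted p 0.0129). Il12rb2 (-0.99) and Cd4 (-0.52) were lower. Il12a, Il12b and Ifng themselves had 0 to 10 counts per library and were not tested. Of 44 NF-kB and cytokine genes, 0 were higher and 3 lower (Ccl2, Il11 and Vcam1, against 2.76% and 2.13% of all genes), with a median of -0.0377. Il6 was at 157, 29, 145 and 51.2 CPM with vehicle and at 74.2, 82.8, 58.1 and 85.0 CPM with FGF23, a wider spread within vehicle than within FGF23. Of 46 interferon response genes, 38 had negative fold changes (7789 of 15090 over all genes), with a median of -0.0834. The guanylate-binding protein genes Gbp2, Gbp3 and Gbp6 were the 3 lower at an unadjusted p below 0.05, against 2.13% of all genes. Gbp3 went from -0.35 to -0.19 and Vcam1 from -0.49 to -0.33 without vehicle replicate 2, and Gbp2 from -0.37 to -0.23 without FGF23 replicate 1.

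No injury or matrix gene passed the threshold by edgeR either. Of 24 tubular injury genes, 1 was higher (Krt18, 0.44) and 8 were lower at an unadjusted p below 0.05 (2.76% and 2.13% of all genes), with 10 positive and 14 negative fold changes and a median of -0.107. Timp1, an inhibitor of matrix proteases, was at 202 to 278 CPM with vehicle and 141 to 208 CPM with FGF23 (log2 fold change -0.43, unadjusted p 0.00692). The fibrinogen genes Fga (-0.82), Fgb (-1.14) and Fgg (-0.91) were among the 8 lower genes, and Fga did not overlap between treatments, at 9.22 to 20.2 CPM against 5.88 to 8.30 CPM. Without vehicle replicate 2, the highest, Fga was at -0.49 and Fgg at -0.50. Fgb had few counts, 15, 25, 12 and 8 with vehicle and 1, 12, 3 and 8 with FGF23, and was at -0.83 without FGF23 replicate 1. Havcr1 and Lcn2, the common markers of tubular injury, had log2 fold changes of -0.49 and -0.11 with an unadjusted p above 0.05, and without vehicle replicate 2 they were -0.19 and 0.018. Of 37 extracellular matrix genes, 0 were higher and 5 lower (Col1a1, Col5a1, Col6a3, Timp1 and Pdgfb, against the same shares of all genes), with 11 positive and 26 negative fold changes and a median of -0.139. Without vehicle replicate 2, Col1a1 went from -0.36 to -0.24, Col6a3 from -0.38 to -0.23 and Pdgfb from -0.23 to -0.15, and Col5a1 went from -0.35 to -0.22 without FGF23 replicate 1. Col1a1 was also at -0.24 without FGF23 replicate 3.

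All 14 heat shock and chaperone genes had negative fold changes (7789 of 15090 over all genes), with a median of -0.151. At an unadjusted p below 0.05, 1 was lower (Hspd1, -0.23), against 2.13% of all genes. Hsph1 shows how the libraries lay: it was at 277, 112, 329.5 and 118 CPM in vehicle replicates 1 to 4 and at 176, 108, 158 and 114 CPM in FGF23 replicates 1 to 4. Odd-numbered libraries were above even-numbered ones in both treatments. Of 18 hypoxia genes, 16 had positive fold changes (7301 of 15090 over all genes), with a median of 0.0845. Car9, a pH-regulating carbonic anhydrase, did not overlap, at 4.10 to 5.55 CPM against 6.14 to 8.13 CPM (log2 fold change 0.55, unadjusted p 0.00525). Of 21 proliferation genes, 0 had an unadjusted p below 0.05, against 4.89% of all genes, and the median was -0.136.

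Cell type marker levels overlapped between the treatments in every list. The mean log2 CPM of each of 16 marker lists was compared with an exact permutation test over the 8 libraries, for which the smallest two-sided p is 0.0286. The smallest p reached was 0.171, with an adjusted p of 0.598 over the 16 lists. The macrophage level was 5.57, 6.16, 5.601 and 6.04 in vehicle replicates 1 to 4 and 5.33, 5.90, 5.47 and 5.89 in FGF23 replicates 1 to 4, with even-numbered libraries above odd-numbered ones in both treatments. Of the 11 macrophage genes, 9 had negative fold changes, with a median of -0.263, and 0 had an unadjusted p below 0.05. The part of macrophage content in the fold changes of the chemokines was not tested. The 7 natural killer cell markers had 0 to 9 counts in each library and were not tested.

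The widest differences in marker level were those of the erythroid list, 1.591 with 2 genes tested, and of the principal cells of the collecting duct, 1.065. The 5 collecting duct genes had a median log2 fold change of 1.37. Aqp2, Aqp3 and Hsd11b2 were higher at an unadjusted p below 0.05, against 2.76% of all genes. The marker level was 2.27 to 3.75 with vehicle and 3.32 to 5.94 with FGF23 (exact permutation test, two-sided p = 0.171, n = 4 per group). Without FGF23 replicate 1 the log2 fold change of Aqp2 went from 2.09 to 0.63, that of Hsd11b2 from 2.10 to 0.46 and that of Aqp3 from 1.11 to 0.43. The erythroid list rested on the hemoglobin genes Hba-a1 and Hbb-bs, with Hbb-bs at 19.2, 2.64, 15.5 and 2.95 CPM in vehicle replicates 1 to 4 and 58.3, 12.7, 26.7 and 12.9 CPM in FGF23 replicates 1 to 4. Hba-a1 had a log2 fold change of 1.70, and 0.84 without FGF23 replicate 1. The part of medullary tissue and of blood in the fold changes of other genes was not tested.

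**Figure D4:**
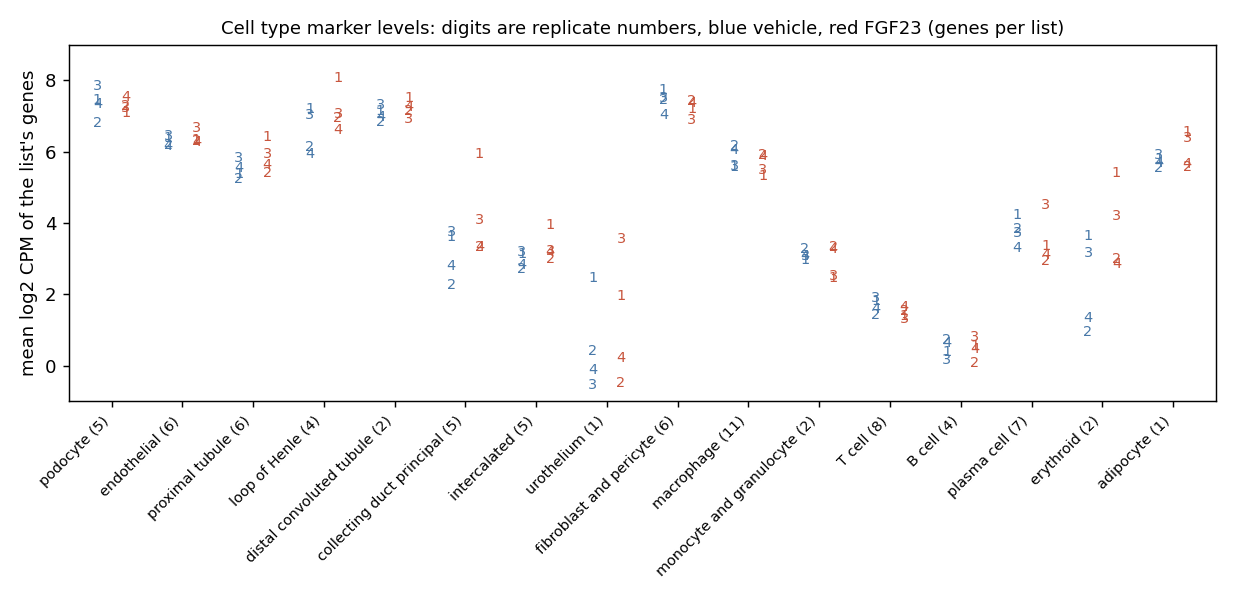
Mean log2 CPM of each cell type marker list (vertical axis) in the slice libraries, shown by replicate number in blue for vehicle and red for FGF23, with the lists and the number of genes in each on the horizontal axis. The groups overlap in every list, and FGF23 replicate 1 is the high point of the collecting duct list at 5.94.

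The FGF23 effect in the slices was then compared with the effect of injected FGF23 in the diseased kidneys, in 1 fit of all 38 libraries and 17919 genes. Against the Adriamycin kidneys, in which FGF23 was given 24 h before dissection, 0 genes differed in their FGF23 effect at an adjusted p below 0.05 (0%), with 1054 at an unadjusted p below 0.05 and a smallest adjusted p of 0.689 by edgeR. Against the anti-GBM kidneys, in which FGF23 was given repeatedly, 91 genes differed (0.508%), 42 with a higher effect in the slices and 49 with a lower one. Strain, age, disease, the region sampled, culture and dosing differ between the experiments as well and cannot be told apart. The same holds for sex, which differs from the Adriamycin mice by the labels and from the anti-GBM mice by the sex genes.

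The genes that differed most clearly from the anti-GBM kidneys were interferon-inducible GTPases and their regulator Irf1. Tgtp2 had a log2 FGF23 effect of -0.33 in the slices and 2.13 in the anti-GBM kidneys, a difference of -2.47 ± 0.40 (SE, adjusted p 0.0057 by edgeR). Irf1 had 0.045 in the slices and 1.25 in the anti-GBM kidneys (difference -1.21, adjusted p 0.0106). Over the interferon list, 17 of 46 genes differed, all with the lower effect in the slices, and the median FGF23 effect was -0.0744 in the slices and 0.765 in the anti-GBM kidneys. In the Adriamycin kidneys it was -0.429, with 0 of 46 positive. Against these, 40 of 46 genes had the higher effect in the slices, with a median difference of 0.34, and 0 differed past the threshold. G6pc, the glucose-releasing enzyme of the proximal tubule, went the other way, with 0.57 in the slices and -1.43 in the anti-GBM kidneys.

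The number of such genes depended on single libraries. It was 9 without FGF23 replicate 1 of the slices, 21 without vehicle replicate 2, 29 without FGF23 replicate 3, 33 without vehicle replicate 4, 431 without FGF23 replicate 2 and 517 without FGF23 replicate 4. Among the anti-GBM mice it was 7 without NTS13, 18 without NTS14 and 410 without NTS16 of the FGF23 group, and 906 without NTS7 and 13 without NTS8 of the vehicle group. The name NTS14 was taken from the running number of its column, whose label otherwise repeats that of another mouse. The fold changes of the chemokines did not differ between experiments past the threshold. Ccl4 had 0.78 in the slices, 0.34 in the Adriamycin kidneys and 0.21 in the anti-GBM kidneys, and Ccl2 had -0.55, 0.52 and 0.73. For Ccl2 the differences were -1.07 ± 0.61 (SE, Adriamycin) and -1.28 ± 0.40 (anti-GBM). Levels were low for Ccl4 in the kidneys, as given below, and for Ccl2 in the Adriamycin kidneys (0.192 to 1.44 CPM), which limits these comparisons.

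The slices differed from the kidney samples in their baseline state in most genes. With vehicle in all groups, 7013 of 17919 genes were higher in the slices than in the Adriamycin kidneys (39.1%) and 7237 were lower (40.4%). Against the anti-GBM kidneys 6809 were higher (38%) and 6858 lower (38.3%). The effects of strain, sex, disease, age, the region sampled, slicing and culture cannot be told apart in these contrasts. The contrasts were chosen after the data had been seen, and levels below are CPM scaled over all 38 libraries.

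Most of the genes through which FGF23 acts on phosphate were far lower in the slices. Kl was at 16.2 to 59.8 CPM in the 8 slice libraries and at 559 to 1510 CPM in the 30 kidneys, with log2 differences of vehicle slices minus vehicle kidneys of -5.10 (Adriamycin) and -5.22 (anti-GBM). Slc34a1 was at 107 to 299 CPM against 3877 to 9585 CPM, and Lrp2 at 46.1 to 101 CPM against 1189 to 3145 CPM. Slc34a3 differed by -5.39 and -4.28, Pdzk1 by -5.52 and -5.39 and Vdr by -2.50 and -2.95. Of the 23 mineral metabolism genes, 17 were lower and 5 higher than in the Adriamycin kidneys, and 16 lower and 4 higher than in the anti-GBM kidneys. Over all genes, 40.4% were lower and 39.1% higher than in the Adriamycin kidneys, and 38.3% and 38% than in the anti-GBM kidneys. No slice library reached the lowest kidney for Kl, Slc34a1 or Lrp2.

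The receptors divided. Fgfr1 was higher in the slices, at 225 to 349.5 CPM against 73.4 to 97.0 CPM, with log2 differences of 1.90 and 1.74. Fgfr3 and Fgfr4 were lower, Fgfr3 by -2.80 and -1.98 and Fgfr4 by -2.15 and -1.72. Fgfr2 was at 19.9 to 42.9 CPM against 18.7 to 38.5 CPM and did not differ past the threshold, with differences of -0.089 and -0.046 and, for the latter, 0.020 under another scaling. The ligand gene Fgf23 was at 0.292 to 2.46 CPM in the slices and at 0 to 0.0696 CPM in the kidneys.

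Most FGF-MAPK target genes were higher in the slices. Of 27, 23 were higher and 2 lower than in the Adriamycin kidneys, and 23 higher and 1 lower than in the anti-GBM kidneys. Over all genes, 39.1% were higher than in the Adriamycin and 38% than in the anti-GBM kidneys. Fosl1 was at 47.2 to 86.3 CPM in the slices and at 0 to 4.98 CPM in the kidneys, Spry4 at 27.5 to 39.9 CPM against 8.66 to 18.8 CPM and Etv4 at 13.5 to 16.7 CPM against 0 to 5.27 CPM. Dusp6 was closer, at 68.8 to 82.9 CPM against 36.5 to 75.1 CPM.

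Most chemokines were higher in the slices. The ranges that follow cover the libraries of both treatments unless vehicle is named. Ccl4 was at 9.78 to 22.8 CPM in the slices and at 0 to 0.742 CPM in the kidneys, and Ccl3 at 7.34 to 15.2 CPM against 0 to 0.600 CPM. Ccl2 was at 24.2 to 46.6 CPM against 0.192 to 21.8 CPM, so the slices lay above the anti-GBM kidneys as well. Il6 was at 24.1 to 129 CPM against 0 to 0.418 CPM, and Lcn2 at 549 to 932 CPM against 0.488 to 207 CPM. With vehicle alone, 25 of 30 chemokine genes were higher and 3 lower than in the Adriamycin kidneys (39.1% and 40.4% of all genes). Against the anti-GBM kidneys, 20 were higher and 4 lower (38% and 38.3% of all genes). Havcr1, at 284 to 673 CPM, was higher than in the Adriamycin kidneys (log2 difference 2.99) and did not differ past the threshold from the anti-GBM kidneys (0.61 ± 0.34, adjusted p 0.102 by edgeR).

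Markers of the cell types differed in both directions. All of the podocyte genes that differed were higher in the slices, 3 of 5 against the Adriamycin and 5 of 5 against the anti-GBM kidneys. Proximal tubule genes were lower, 6 and 7 of 7, with medians of -5.14 and -5.35. The 5 collecting duct genes were lower against both, with medians of -4.02 and -3.65, and the 4 loop of Henle genes had medians of -1.90 and -1.01. Of 11 macrophage genes, 9 were higher and 1 lower than in the Adriamycin kidneys, and 4 higher and 1 lower than in the anti-GBM kidneys. Over all genes, 39.1% were higher and 40.4% lower than in the Adriamycin kidneys. Against the anti-GBM kidneys these shares were 38% and 38.3%, so the macrophage count there was near the share of all genes.

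**Figure D5:**
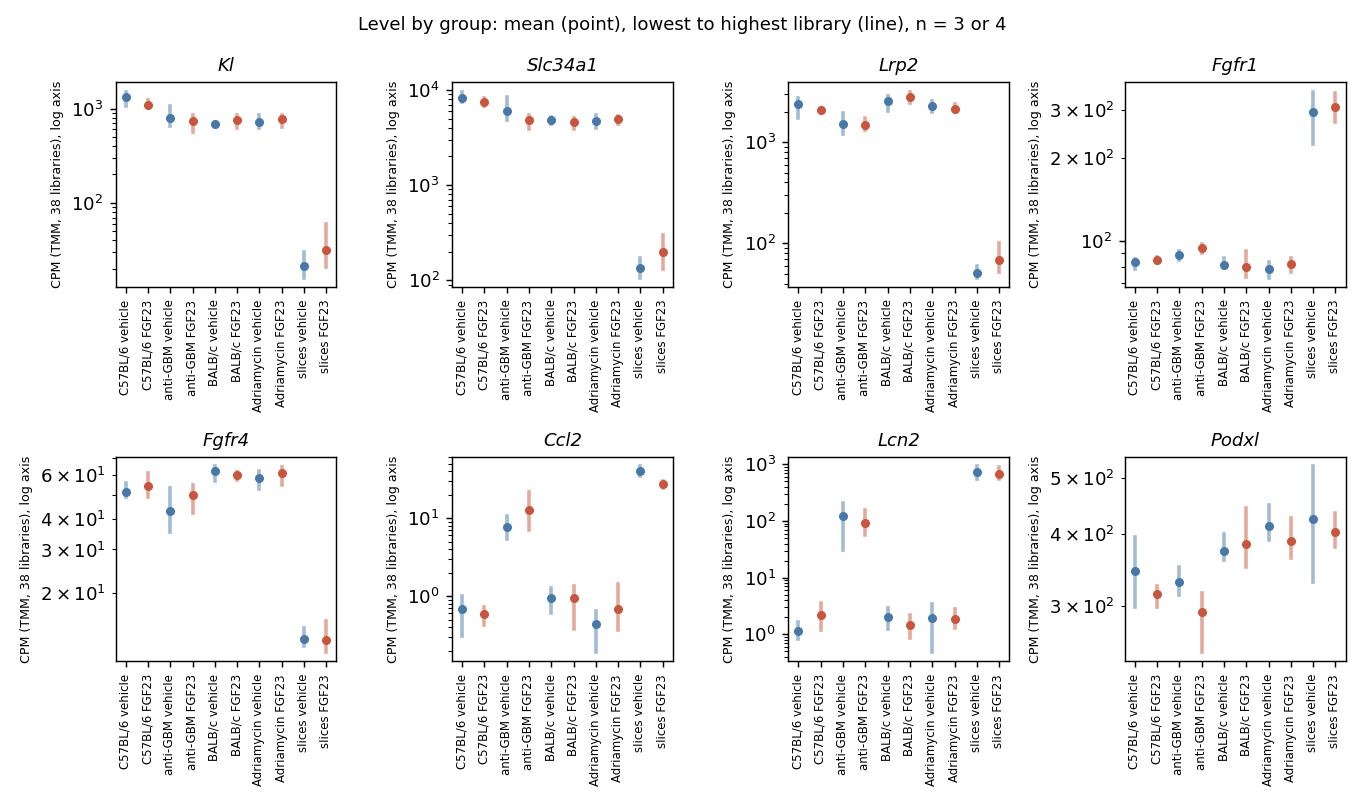
Levels of 8 genes in the 10 groups of the study (vertical axis, CPM on a log axis, mean as a point and lowest to highest library as a line, 3 or 4 libraries per group), with vehicle in blue and FGF23 in red. The slice groups at the right are below every kidney group for Kl, Slc34a1, Lrp2 and Fgfr4 and above every one for Fgfr1, Ccl2 and Lcn2.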

How the data were processed

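RNA of 8 slice cultures and 30 kidneys was sequenced from stranded mRNA libraries. Per the methods and the submitters' processing notes, reads were demultiplexed with bcl2fastq 2.20.0, checked with FastQC 0.11.8, aligned to GRCm38 with STAR 2.7.9a and counted on Ensembl genes with featureCounts 1.5.1, and the authors deposited raw counts of 55487 genes, neither normalized nor filtered. The strand setting of the counting is not given in the sources used here. Symbols were found for 55141 genes, and genes without one held under 0.03% of each library's counts. Coordinates are those of GENCODE M21 on GRCm38.

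Groups followed the sample labels. The study's own column headers of the slice counts give the same treatments, alternating by column, but 1 header line divides the columns into a first and a last block of 4, which crosses the treatments, and was not used. Counts of the slices were filtered with filterByExpr (minimum count 10), scaled with TMM (factors 0.973 to 1.05) and tested with glmQLFit and glmQLFTest of edgeR 4.0.16 with Benjamini-Hochberg adjustment in R 4.3.3, with limma 3.58.1. The common dispersion was 0.0233. Contrasts between experiments came from 1 fit of 10 groups and 17919 genes. Marker levels are means of log2 CPM with a prior count of 2. The chi-square per degree of freedom between libraries of 1 group was 2.02 to 39. It was lowest in vehicle for replicates 1 and 3 (2.91) and in FGF23 for replicates 2 and 4 (2.02). Such values set the libraries apart from 1 RNA sequenced repeatedly, but do not show that cultures came from different mice. Each culture was counted as its own sample. The code was tested on simulated data.

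Named were the 10 highest-ranked genes by p among those higher and those lower with FGF23, all members of the 3 FGF23 lists, and of each further list the 3 members with the smallest p; other genes named, and the genes compared with the kidneys, were chosen after their values were seen. The members and lists were chosen with earlier results of these data known. Some genes that this rule names are not reported here. Of the list members, 1 (Ero1a) matched no symbol. The counts cover 4 cultures per treatment, which limits precision as the intervals show. The alternatives were RLE scaling, no filter or at least 10 counts in every library, a robust fit, DESeq2 1.42.0, the replicate number as a block, all 38 libraries in 1 fit, antibody and T cell receptor genes left out, each library left out and, chosen after seeing the data, odd-numbered and even-numbered cultures summed or fitted as a term. Columns of the counts not used numbered 0.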

Additional observations from a re-analysis of the deposited data

Results flagged for a closer look

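Among 360 groups of 4 libraries looked at, 23 held a library whose gap to the nearest other was a large part of the group's range. For independent, normally distributed values chance gives about 1 in 20 groups. That rate is only a rough guide here, because the genes share libraries and many were chosen by their values. Of the 23, 14 were in FGF23 replicate 1. In that library Aqp2 (247.3 CPM), Aqp3 (44.67 CPM), Hsd11b2 (107.8 CPM), Slc4a1 (7.369 CPM) and Kcnj1 (64.68 CPM), transcripts of the collecting duct and the loop of Henle, stood above the other FGF23 libraries. So did Kl (72.51 CPM), Cubn (32.48 CPM) and S100g (91.61 CPM), and the genes induced by growth factors Egr1 (720.4 CPM), Fosb (443 CPM), Jun (590.3 CPM) and Spry2 (77.6 CPM). Egr2 (34.75 CPM) and Gbp2 (46.94 CPM) were low there.

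FGF23 replicate 3 was apart with high Spry4 (48.02 CPM), Pecam1 (223.3 CPM), Iglc1 (11.08 CPM) and endothelial marker level (6.652 as mean log2 CPM). FGF23 replicate 4 was apart with high Ccl3 (18.42 CPM), vehicle replicate 1 with Krt5 (5.304 CPM), vehicle replicate 2 with H6pd (392.1 CPM) and Gbp3 (69.24 CPM), and vehicle replicate 4 with Ccnd1 (262.4 CPM). The cause was not tested.

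The log2 effect of FGF23 differed between the slices and the anti-GBM kidneys in 91 genes by the test of the difference itself, an edgeR contrast over both experiments. The 8 with the smallest adjusted p differed, as slices minus anti-GBM kidneys, by -2.466 (Tgtp2), 2.00 (G6pc), -2.923 (Tgtp1), -2.004 (Gbp4), -1.21 (Irf1), -1.268 (Irgm1), -1.298 (Gbp9) and -1.336 (Gbp3). Irf1, Irgm1 and Gbp3 lost the threshold without anti-GBM mouse NTS13 (adjusted p 0.0607, 0.0635 and 0.0947), and Gbp3 without slice FGF23 replicate 1 (0.0553).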

How the results depend on the processing

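The count of 0 genes past the threshold in the slices held under RLE, at least 10 counts in every library, a robust fit, odd and even cultures summed or as a term, and without each replicate in turn (0 to 0). It became 2 without a filter and 2 with all 38 libraries in 1 fit (Ighv2-2 and Igkv8-24 in both), and 3 with DESeq2. A cutoff of 0.1 gave 0. With a replicate block, the count was 0 by edgeR (912 at an unadjusted p below 0.05) and 29 by DESeq2. Among the 29 were Hbb-bs (adjusted p 3.2e-08 by DESeq2), Hba-a1 (5.14e-06), Igfbp2, Egf, Slc12a1, Cldn10, Upk3b, Aqp3 and Ccl4. Msr1, Ighv2-2 and Igkv8-24 were lower with FGF23, and all others of the 29 were higher. The numbers were not shown to pair the cultures: deviations from the group means correlated by 0.107, 0.105, -0.105 and 0.112 between same-numbered libraries. At an unadjusted p below 0.05 stood 1485 genes without a filter, 1734 in the fit of 38 libraries, 229 with odd and even cultures summed and 1339 with that term. The 91 genes whose effect differed from anti-GBM kidneys became 53 without a filter, 611 by DESeq2 and 7 to 906 without 1 replicate, and the 0 against Adriamycin kidneys held under all alternatives run. The cause was not tested.

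Of 164 genes with a fold change in the slices, 33 changed sign under some alternative. Without 1 library the log2 fold changes ran over Fgfr1 -0.0600 to 0.146, Fgfr4 -0.127 to 0.0214, Fgf23 -0.163 to 0.501, Frs2 -0.176 to 0.0396, Frs3 -0.0517 to 0.217, Gab1 -0.0776 to 0.0987, Egr2 -0.118 to 0.0579, Egr3 -0.0916 to 0.108, Fosb -0.0229 to 0.769, Jun -0.0184 to 0.257, Dusp4 -0.112 to 0.0764, Dusp6 -0.0851 to 0.00371, Spry1 -0.127 to 0.127, Spred3 -0.00451 to 0.127, Phlda1 -0.0829 to 0.154, Myc -0.00512 to 0.102, Vdr -0.0973 to 0.0913, Rxra -0.0404 to 0.00761, Cubn -0.0453 to 0.334, Slc20a2 -0.0838 to 0.0400, Slc9a3r1 -0.0497 to 0.0946, Pth1r -0.00337 to 0.161, S100g -0.0944 to 0.921, Slc8a1 -0.0313 to 0.201, Casr -0.119 to 0.283, Podxl -0.19 to 0.0349, Pecam1 -0.0326 to 0.191, Cdh5 -0.116 to 0.184, Krt5 -0.187 to 2.29, Ccr2 -0.275 to 0.102, Cd3g -0.307 to 0.0016, Lcn2 -0.273 to 0.0177, Il6 -0.643 to 0.00864. Gab1 was also at 0.00082 in the fit of 38 libraries, and Egr3 at -0.00325 without a filter and -0.0116 with cultures summed. Without 1 library the marker level difference of podocytes ran from -0.256 to 0.0815 and that of B cells from -0.117 to 0.129. Fgfr2 against anti-GBM kidneys was 0.0197 under RLE, which moved the median of all genes by 0.0508 and 0.0621. Depth limits the V genes most, with 116 to 912 counts in all per library.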
